A study of Mus musculus with 6 samples.

Results

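The 10 genes described here encode plasma carrier proteins, which hepatocytes secrete into the blood: Alb, Ttr, Tf, Rbp4, Ahsg, Gc, Ambp, Hpx, Fetub and Afp. They were found by their symbols among the 41388 Ensembl genes of the deposited table, and all 10 were present and above 0 in each of the 6 libraries. Tf is listed as Trf, its symbol in the annotation used. They were chosen by function, with the RPKM differences between the 3 Aloxe3 and 3 β-gal libraries already in view, so those differences are given as a description, and nothing rests on a test of them.

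Primary hepatocytes of C57BL/6J mice, the parenchymal cells of the liver, were isolated with collagenase, rested overnight in growth medium and given adenovirus for 24 h at about 1000000 viral particles per 1000000 cells. The control group received adenovirus encoding β-gal, a bacterial enzyme used as a neutral cargo (replicates 1, 2 and 3), and the other group received adenovirus encoding Aloxe3, a lipoxygenase-family enzyme (replicates 7, 8 and 9). Both groups therefore carried virus, and no library of cells without virus entered the comparison. The labels do not tie the replicates to separate animals or cultures, so p-values measure only the spread between these samples, which may be technical.

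Plasma carriers keep poorly soluble or reactive cargo in solution and in reach of the tissues. Albumin binds fatty acids, bilirubin and many drugs. Transthyretin, the product of Ttr, carries thyroxine and also holds the retinol carrier encoded by Rbp4 in the circulation. Transferrin carries iron, hemopexin carries free haem, and the product of Gc carries vitamin D and actin. Ahsg and Fetub encode the fetuins, which bind mineral or inhibit proteases. Ambp encodes a precursor that is cut into a small lipocalin and the protease inhibitor bikunin. Afp encodes the fetal relative of albumin, which falls to a low level after birth. In acute inflammation the liver makes less of the negative acute-phase proteins, to which albumin and transthyretin belong, and more haptoglobin and hemopexin.

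RPKM is the number of reads per kilobase of gene, scaled to the library's size, and so corrects for both gene length and depth. Library sizes derived from the steps between the values ranged from 25521908 to 32431318 reads. Aloxe3 itself was at 2.04, 2.06 and 1.74 RPKM in the β-gal libraries and at 42.3, 45.8 and 56.3 RPKM in the Aloxe3 libraries, in the order of the replicate numbers, which is the order used throughout. All pairs of replicates differed beyond counting noise: their chi-square divided by its degrees of freedom ran from 3.47 to 9.82. The pairs that include Aloxe3 replicate 9 gave the highest values, 8.99 and 9.82, so the differences of the carrier genes are also given without this library. Of 8 hepatocyte markers, Apoa1 and Apob were at 218 RPKM or more in each library, whereas Cps1 and Tat were low. Cps1 was at 0.915, 0.988 and 1.05 RPKM in the β-gal libraries and at 1.64, 1.29 and 1.56 RPKM in the Aloxe3 libraries, and Tat at 0.193, 0.346 and 0.295 RPKM and at 0.635, 0.438 and 0.661 RPKM. Both markers were higher in every Aloxe3 library than in any β-gal library, whereas Apoa1 (log2 difference -0.10) and Serpina1a (-0.11) were lower in every Aloxe3 library. Over all tested genes, the groups of 19.9% were apart in either direction. Tat, with 15 to 42 derived reads a library, was too low to be tested. The groups of Apob, Cyp2e1, Ass1 and Asgr1 overlapped. The summed hepatocyte markers lay between 549 and 568 RPKM in the β-gal libraries and between 534 and 543 RPKM in the Aloxe3 libraries, most of it from Apoa1 and Apob.

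Markers of other liver cells were weak apart from Spp1, Krt19 and Sox9, listed as markers of bile duct cells. Summed over 6 genes each, Kupffer cell markers were at 5.92 RPKM or less, endothelial markers at 13.7 RPKM or less and stellate markers at 3.97 RPKM or less in each library. Lrat, a stellate marker, is listed at 0, as is Srp54a, a gene of the signal recognition particle that cells in general use. The 6 cholangiocyte markers summed to between 1509 and 1593 RPKM in the β-gal libraries and between 1577 and 1716 RPKM in the Aloxe3 libraries, nearly all of it from Spp1. Within that list Krt19 and Sox9 were at 32.9 RPKM or more in each library, and Krt7 and Cftr were at 0.163 RPKM or less. Epcam, too low to be tested, was at 0.456, 0.423 and 0.398 RPKM in the β-gal libraries. It was lower in every Aloxe3 library, at 0.154, 0.306 and 0.334 RPKM. The markers tested were 7 for hepatocytes, 4 for Kupffer cells, 4 for endothelium, 2 for stellate cells and 3 for cholangiocytes. With limma 0 of them passed the test, 3 hepatocyte markers (Cps1, Apoa1 and Serpina1a) had an unadjusted p under 0.05, where 12.7% of all tested genes did, and 1, Cps1, passed as higher when voom, which weights log counts by their precision, was run on the derived reads, where 1.22% of genes passed. The part of these markers in the values below was not tested. In such bulk samples, fewer cells of a type and less RNA per cell cannot be told apart.

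The carrier genes spanned a wide range of levels, from albumin, the fourth most abundant transcript of the 12693 genes tested, to the fetal gene Afp. Alb was at 4552, 4521 and 4499 RPKM in the β-gal libraries and at 4460, 4513 and 4362 RPKM in the Aloxe3 libraries. Afp was at 4.62, 4.38 and 4.72 RPKM in the β-gal libraries and at 5.15, 4.73 and 4.32 RPKM in the Aloxe3 libraries. The albumin level was thus 991 ± 40.0 times that of Afp in β-gal libraries and 944 ± 72.5 times in Aloxe3 libraries (SD, n = 3 each), and the ranges of this ratio overlapped. By their derived reads, which are minimum values for all but Tf and Ambp, the 10 genes together took at least 1.98% ± 0.017 of the library in the β-gal group and 1.98% ± 0.050 in the Aloxe3 group (SD, n = 3), of which albumin alone took at least 0.924% and 0.908%.

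**Figure D1:**
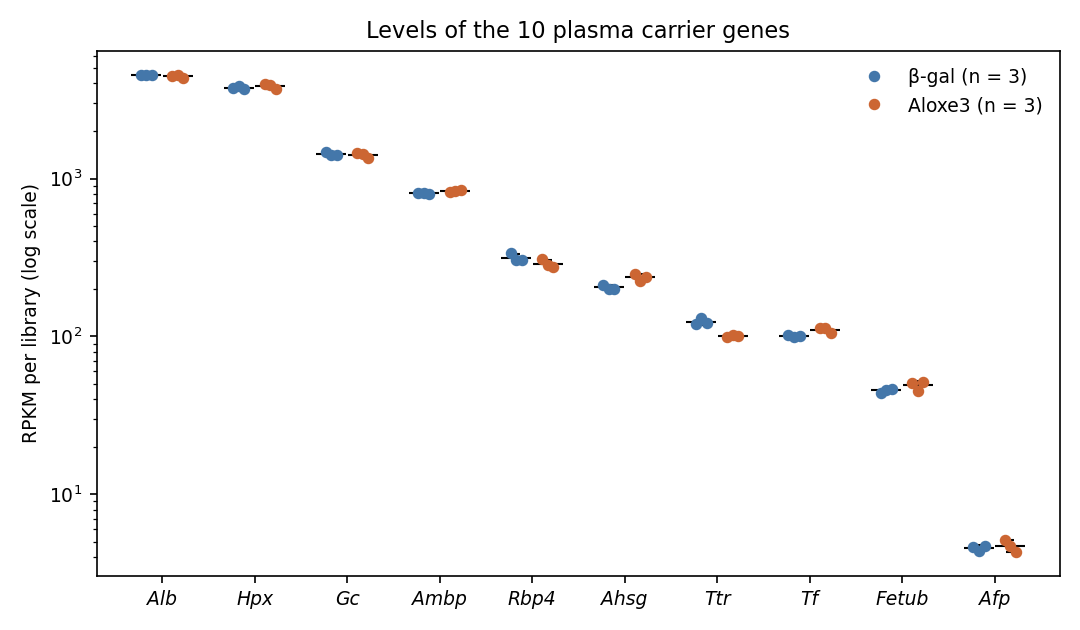
RPKM of each carrier gene on a log axis in the 3 β-gal libraries (blue) and the 3 Aloxe3 libraries (orange), with black bars for mean ± SD. The order of the genes was the same in both groups except for Ttr and Tf, which lie next to each other and changed places.

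The order of the levels ran from Alb through Hpx, Gc, Ambp, Rbp4, Ahsg, Ttr, Tf and Fetub down to Afp. In the β-gal group each gene lay above the next without overlap of the libraries. In the Aloxe3 group the same held for all neighbours but Ttr and Tf. The ratio of Ttr to Tf was 1.17, 1.33 and 1.22 in the β-gal libraries and 0.876, 0.900 and 0.957 in the Aloxe3 libraries. Transthyretin transcripts thus exceeded those of transferrin in 3 of 3 β-gal libraries and in 0 of 3 Aloxe3 libraries. That the ratio is apart follows from Ttr being lower and Tf higher in every Aloxe3 library. Which of these genes lies above the other also rests on the gene lengths behind RPKM. Among all tested genes Ttr was at rank 328 by mean level in the β-gal group and 446 in the Aloxe3 group, and Tf at rank 456 and 376.

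Alb, Gc and Afp lie in the albumin gene cluster of chromosome 5, and the 150 bases upstream of their RefSeq start (build GRCm38.p6) are shown because each holds the letters GTTAAT, a half-site of the hepatocyte factor HNF1, marked in capitals. The windows are chr5:90460720-90460869 on the forward strand for Alb, chr5:90490564-90490713 on the forward strand for Afp and chr5:89457899-89458048 on the reverse strand for Gc.
Alb: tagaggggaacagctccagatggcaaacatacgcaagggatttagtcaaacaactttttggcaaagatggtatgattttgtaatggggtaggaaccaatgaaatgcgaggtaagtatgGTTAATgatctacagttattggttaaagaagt
Afp: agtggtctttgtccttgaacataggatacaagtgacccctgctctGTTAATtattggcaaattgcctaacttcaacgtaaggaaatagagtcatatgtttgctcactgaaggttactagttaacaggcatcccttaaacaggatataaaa
Gc: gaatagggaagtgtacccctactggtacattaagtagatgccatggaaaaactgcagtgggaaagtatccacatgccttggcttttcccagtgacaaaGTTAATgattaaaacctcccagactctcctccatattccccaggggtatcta

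Promoter windows were searched for 8 of the carrier genes, all but Ttr and Tf. They made 10 windows in all, since Rbp4 and Fetub have 2 start sites each. Searched on both strands, GTTAAT was present in 3 of the 10 windows and in 3.71% of 32851 promoter windows of the same length. The forkhead letters TGTTTGC were present in 5 of the 10 (Alb, Ahsg, Ambp, 1 of those of Fetub, and Afp), against 2.44% of windows. The C/EBP letters TTGCNNAA were in 4 of the 10, against 5.46% of windows, and TATAAA in 3 of the 10, against 7.57%. Both matches of Rbp4 lay at its second start. TGTTTGC ends in the TTGC that opens the C/EBP letters, so matches of these motifs can overlap. A match is a description of the letters and does not show that a factor binds.

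Of the 10 carrier genes, 6 had a positive and 4 a negative difference between Aloxe3 and β-gal, on the scale of log2(RPKM + 1), which understates the change of low genes. The median was 0.04, against 0.005 over all tested genes. Without Aloxe3 replicate 7 the medians were 0.0016 and 0.0017. In 4 of the 10 genes the groups did not overlap, 3 of them higher and 1 lower with Aloxe3, where 19.9% of all tested genes were apart in this way (11.2% higher and 8.71% lower). At an adjusted p under 0.05 with limma, 1 of the 10 was called, Ttr, where 0.394% of tested genes were called in either direction (50 of 12693), 0.355% as higher and 0.0394% as lower. Nothing is read from these counts, since the genes were listed with this comparison known. The 50 calls dropped to 9, 10 and 15 without β-gal replicates 1, 2 and 3 and to 6, 14 and 19 without Aloxe3 replicates 7, 8 and 9.

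**Figure D2:**
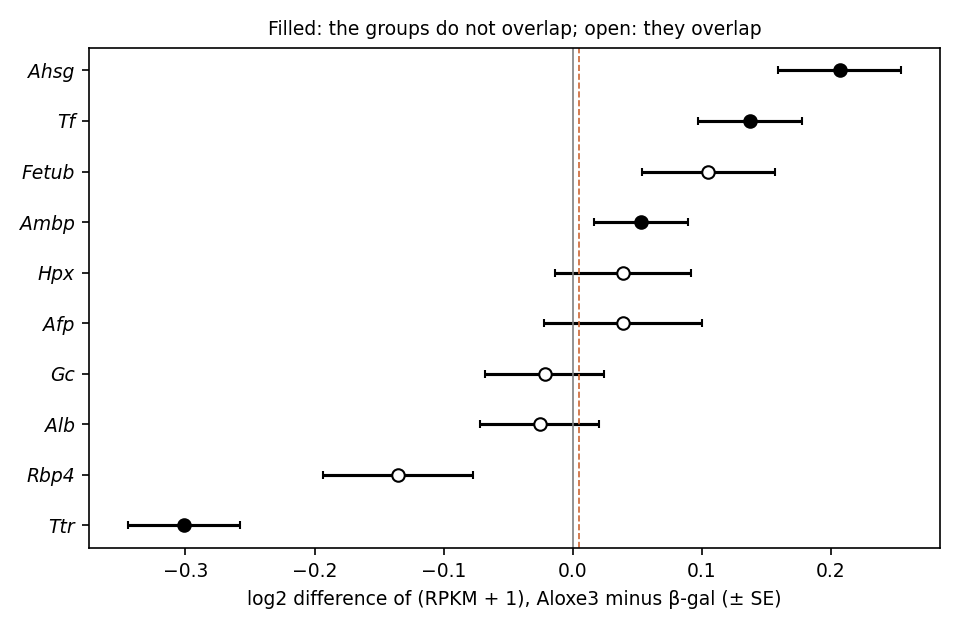
Difference between the Aloxe3 and β-gal groups for each carrier gene on the log2(RPKM + 1) scale, with the SE from limma as bars. Filled points are the 4 genes whose libraries do not overlap between groups, the solid line is 0 and the dashed line is the median of all tested genes; Ttr lies lowest at -0.30 and Ahsg highest at 0.21.

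Ttr, which carries thyroxine, had the largest difference of the carrier genes in either direction. It lies on chromosome 18 of GRCm38 from 20665280 to 20674321. Its level was 119, 131 and 122 RPKM in the β-gal libraries and 99.4, 101 and 101 RPKM in the Aloxe3 libraries. Every Aloxe3 library was below every β-gal library. The means were 124 ± 6.46 and 100.5 ± 1.06 RPKM (SD, n = 3 each), a log2 difference of -0.30 (SE 0.043), or 0.809 times the β-gal level. The spread in the Aloxe3 group, 1.05% of the mean, was below the 1.73% that counting alone gives at most, whereas in the β-gal group it was 5.20% against 1.45%. The difference was -0.33, -0.26 and -0.31 without β-gal replicates 1, 2 and 3 and -0.29, -0.31 and -0.30 without Aloxe3 replicates 7, 8 and 9. Its call was lost in each of these 6 fits.

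Rbp4, whose product circulates bound to transthyretin, was lower in the same direction by a smaller amount, but its groups overlapped. It lies on the reverse strand of chromosome 19 from 38116629 to 38125281. Its level was 335, 306 and 306 RPKM in the β-gal libraries and 308, 281 and 273 RPKM in the Aloxe3 libraries. Aloxe3 replicate 7 lay above 2 of the 3 β-gal libraries. The log2 difference was -0.14 (SE 0.058), and it was -0.10 without Aloxe3 replicate 9. The ratio of Rbp4 to Ttr was 2.82, 2.33 and 2.51 in the β-gal libraries and 3.10, 2.77 and 2.72 in the Aloxe3 libraries, so these ranges overlapped too.

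Ahsg, which encodes fetuin-A, the inhibitor of mineral precipitation in blood, had the largest positive difference. It lies on the forward strand of chromosome 16 from 22891277 to 22899449. Its level was 212, 201 and 200.2 RPKM in the β-gal libraries and 247, 224 and 238 RPKM in the Aloxe3 libraries. All Aloxe3 libraries were above all β-gal libraries. The means were 204 ± 6.89 and 236 ± 11.8 RPKM (SD, n = 3 each), a difference of 15.5% of the β-gal mean, or 0.21 on the log2 scale (SE 0.048), and 0.20 without Aloxe3 replicate 9.

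Fetub, the gene of the neighbouring fetuin-B, which inhibits a protease of the egg, starts 18.9 kb beyond the end of Ahsg. It was at 44.1, 45.9 and 46.5 RPKM in the β-gal libraries and at 50.5, 45.4 and 51.2 RPKM in the Aloxe3 libraries. Aloxe3 replicate 8 fell among the β-gal libraries, whereas the other Aloxe3 libraries lay above them. The log2 difference was 0.11 (SE 0.052), and it was 0.16 without Aloxe3 replicate 8 and 0.074 without replicate 9. The ratio of Ahsg to Fetub was 4.82, 4.38 and 4.31 in the β-gal libraries and 4.89, 4.93 and 4.64 in the Aloxe3 libraries, which overlapped. The kininogen genes and Hrg, also genes of secreted proteins with cystatin domains, follow Fetub in a cluster that spans 191 kb from Ahsg to Kng1, and their log2 differences were -0.17 for Hrg, 0.34 for Kng2 and 0.10 for Kng1, none of which passed the test as reported. Kng2 passed under a filter at a mean of 5 RPKM, where 0.638% of genes did, and with voom. These 3 genes were named for their position.

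Tf, which encodes the iron carrier transferrin, lies on the reverse strand of chromosome 9 from 103204001 to 103230444. Its level was 102, 98.8 and 100.3 RPKM in the β-gal libraries and 113, 113 and 105 RPKM in the Aloxe3 libraries. The Aloxe3 libraries were all above the β-gal libraries, with replicate 9 the nearest to them. The means were 100.3 ± 1.47 and 110.5 ± 4.64 RPKM (SD, n = 3 each), and the log2 difference was 0.14 (SE 0.040), or 0.17 without Aloxe3 replicate 9.

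Ambp showed the smallest difference among the genes whose groups were apart. It lies on the reverse strand of chromosome 4 from 63143275 to 63154799. Its level was 811, 810.3 and 792 RPKM in the β-gal libraries and 827, 837 and 841 RPKM in the Aloxe3 libraries. The groups did not overlap, although the log2 difference was only 0.05 (SE 0.036), and 0.048 without Aloxe3 replicate 9. The heavy chain genes of the inter-alpha-trypsin inhibitors, whose products are joined to bikunin, are described with the partners below.

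**Figure D3:**
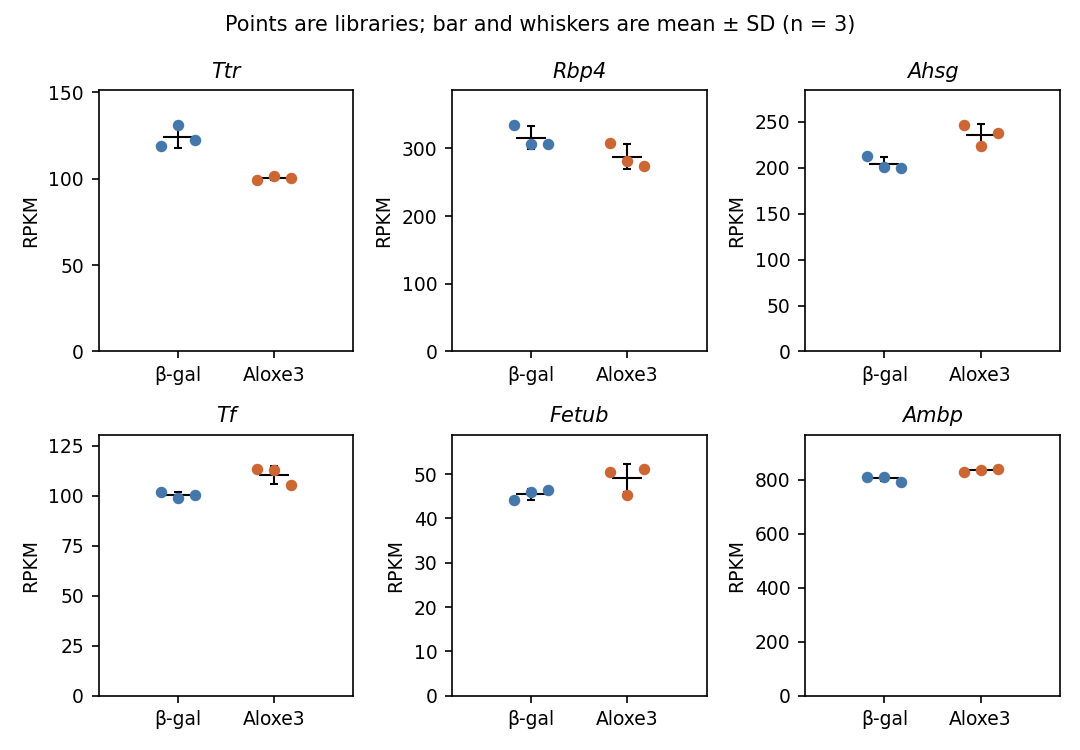
RPKM per library (points) with mean ± SD (black) for Ttr, Rbp4, Ahsg, Tf, Fetub and Ambp, each on its own axis from 0. The β-gal and Aloxe3 points do not overlap for Ttr, Ahsg, Tf and Ambp and overlap for Rbp4 and Fetub.

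Alb, Gc, Hpx and Afp each had a difference below its SE. Alb, on the forward strand of chromosome 5 from 90460897 to 90476602, had means of 4524 ± 26.2 and 4445 ± 76.7 RPKM (SD, n = 3 each) and a log2 difference of -0.03 (SE 0.046), or -0.012 without Aloxe3 replicate 9. Its spread was 0.580% of the mean in the β-gal group and 1.73% in the Aloxe3 group, where counting alone gives at most 0.186% and 0.201%. Gc, the vitamin D carrier of the same cluster, was at 1479, 1414 and 1409 RPKM in the β-gal libraries and at 1448, 1433 and 1357 RPKM in the Aloxe3 libraries. The libraries of both groups overlapped for Alb and for Gc. The log2 difference of Gc was -0.02 (SE 0.046) and turned positive, to 0.0069, without Aloxe3 replicate 9, and to 0.00087 without β-gal replicate 1. The ratio of Gc to Alb was 0.317 ± 0.0070 in the β-gal group and 0.318 ± 0.0068 in the Aloxe3 group (SD, n = 3 each).

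Hpx, the haem carrier, lies on the reverse strand of chromosome 7 from 105591613 to 105600137 and was at 3719, 3834 and 3710 RPKM in the β-gal libraries and at 3982, 3932 and 3664 RPKM in the Aloxe3 libraries. Replicates 7 and 8 of the Aloxe3 group were the highest of all 6 libraries and replicate 9 was the lowest, so the groups overlapped. The log2 difference was 0.04 (SE 0.053), 0.08 without Aloxe3 replicate 9, and -0.04 with quantile normalization, which turned its direction. Afp, with 238 to 311 derived reads a library, had a log2 difference of 0.04 (SE 0.061) that was -0.013 without Aloxe3 replicate 7 and 0.092 without replicate 9. The libraries of Afp overlapped. Its spread was 3.85% of the mean in the β-gal group and 8.77% in the Aloxe3 group, where counting alone gives at most 5.78% and 6.10%. Its neighbours on chromosome 5 are Alb, 14.1 kb upstream, and Afm, the vitamin E binding afamin, 10.0 kb downstream, with a log2 difference of -0.02 that did not pass the test.

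**Figure D4:**
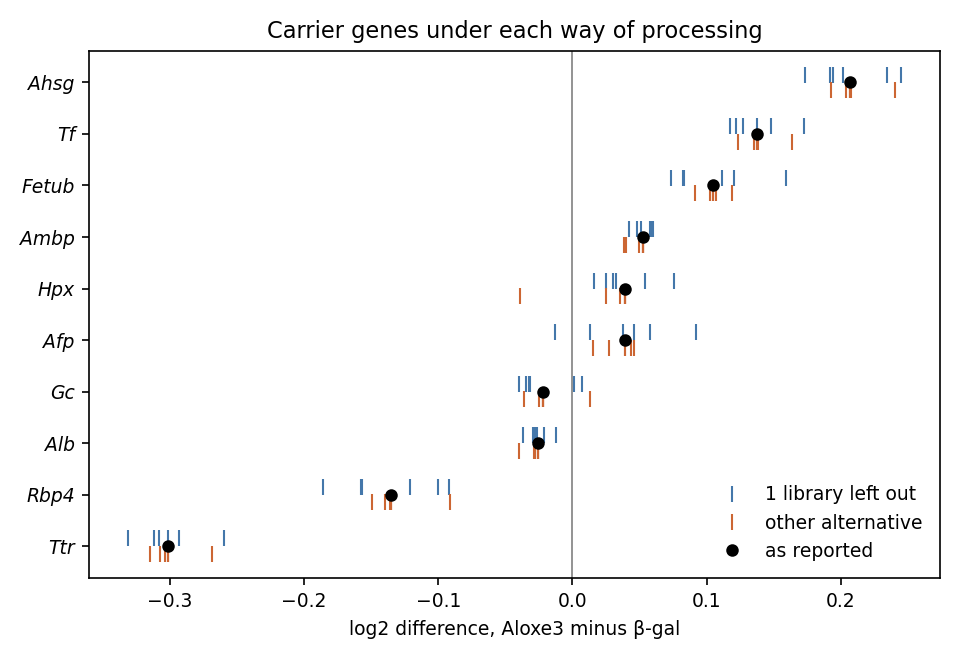
Log2 difference between Aloxe3 and β-gal for each carrier gene as reported (black), with 1 library left out (blue ticks) and under the other alternatives (orange ticks). The ticks of Ttr stay between -0.33 and -0.26 and those of Ahsg between 0.17 and 0.24, whereas those of Gc, Hpx and Afp lie on both sides of 0.

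Among the 23 other secreted carrier and binding proteins listed, 22 were tested, and 2 passed the test as higher with Aloxe3 (0.355% of all tested genes) and 0 as lower (0.0394%). Of the 22, 11 had an unadjusted p under 0.05 (12.7% of all tested genes), and voom called 7 (1.22%). The groups were apart in 12, 9 of them higher and 3 lower (19.9% of all tested genes). Their median log2 difference was 0.08. This list and those below were chosen with earlier results of these data known, so nothing is read from their counts. Hp, which encodes haptoglobin, the carrier of free haemoglobin, was at 797, 847 and 831 RPKM in the β-gal libraries and at 1205, 1185 and 1136 RPKM in the Aloxe3 libraries. Haptoglobin transcripts rose 1.42-fold, with a log2 difference of 0.51 (SE 0.045, adjusted p = 0.0078 with limma). Without Aloxe3 replicate 7 the adjusted p was 0.0545 at a log2 difference of 0.49, and over all alternatives it ranged from 4.9e-06 to 0.146. The ratio of Hp to Hpx was 0.214, 0.221 and 0.224 in the β-gal libraries and 0.303, 0.301 and 0.310 in the Aloxe3 libraries. This ratio was higher in each Aloxe3 library than in any β-gal library.

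Serpina7, which encodes thyroxine-binding globulin, was the other gene of this list to pass. It was at 9.86, 10.9 and 10.8 RPKM in the β-gal libraries and at 16.98, 18.8 and 15.2 RPKM in the Aloxe3 libraries. The groups did not overlap, and the level rose 1.62-fold, with a log2 difference of 0.64 (SE 0.075, adjusted p = 0.0226 with limma). The adjusted p was 0.0802, 0.117 and 0.0793 without β-gal replicates 1, 2 and 3 and 0.0885 and 0.0549 without Aloxe3 replicates 7 and 8, in a range from 0.00018 to 0.146 over all alternatives. Of the thyroxine carriers, Serpina7 was therefore higher and Ttr lower in the Aloxe3 libraries, and albumin overlapped. The ratio of Serpina7 to Ttr was 0.0829, 0.0827 and 0.0883 in the β-gal libraries and 0.171, 0.185 and 0.151 in the Aloxe3 libraries. That these ranges do not overlap follows from Serpina7 being higher and Ttr lower in every Aloxe3 library.

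**Figure D5:**
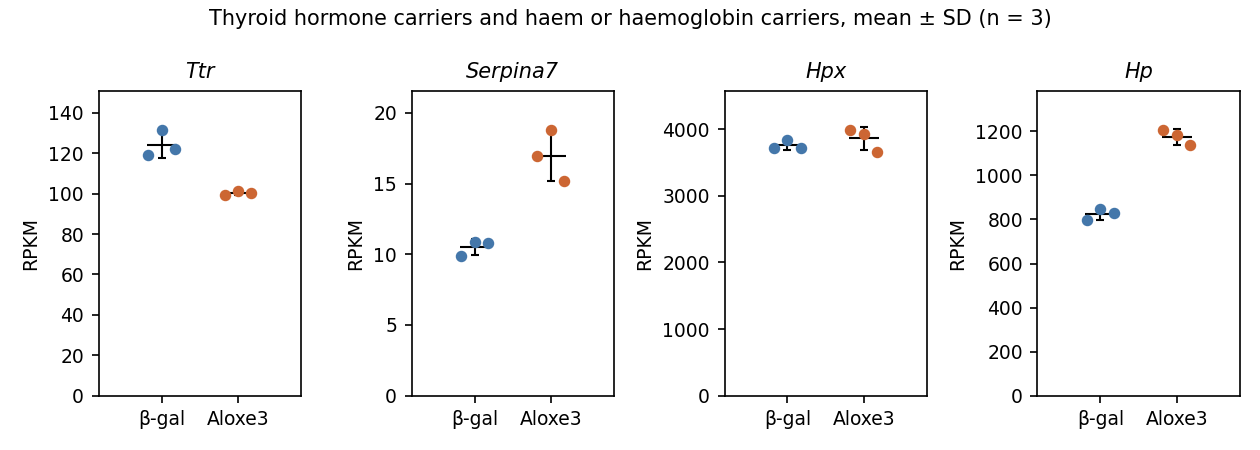
RPKM per library (points) with mean ± SD (black) for the thyroxine carriers Ttr and Serpina7 and for the haem carrier Hpx and the haemoglobin carrier Hp, each on its own axis from 0. The groups are apart for Ttr, Serpina7 and Hp and overlap for Hpx.

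The genes that receive, process or hand on the carriers come next. Of 14 listed receptors and clearance genes 11 were tested, and 0 passed the test with limma in either direction (0.394% of all tested genes), with 2 at an unadjusted p under 0.05, near the 12.7% of all tested genes, and 0 with voom. The most abundant were Lrp1, a scavenger receptor that takes up haem bound to hemopexin (92.8 ± 0.944 and 92.5 ± 5.39 RPKM), Tfr2, the iron-sensing transferrin receptor (34.1 ± 1.18 and 34.0 ± 1.82 RPKM), and Fcgrt, which returns albumin to the blood (21.8 ± 0.927 and 21.04 ± 1.07 RPKM; SD, n = 3, β-gal first). Their log2 differences were -0.01 (SE 0.047), -0.01 (SE 0.048) and -0.05 (SE 0.049). The median of the list was -0.01.

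Of 11 partners of bikunin and the fetuins 8 were tested, and 0 passed with limma (0.394% of all tested genes), with 3 at an unadjusted p under 0.05 (12.7% of all tested genes). Itih2 passed with voom (1.22% of all genes) and under the filter at 5 RPKM (0.638%). The groups were apart in 5 of the 8, 3 higher and 2 lower (19.9% of all tested genes). Itih2, a heavy chain joined to bikunin, was at 59.6, 58.3 and 62.4 RPKM in the β-gal libraries and at 70.2, 69.9 and 71.5 RPKM in the Aloxe3 libraries, a log2 difference of 0.23 (SE 0.037, adjusted p = 0.066 with limma). The groups of Itih2 did not overlap, nor did its ratio to Ambp, 0.0748 ± 0.0036 in the β-gal group and 0.0845 ± 0.00084 in the Aloxe3 group (SD, n = 3 each). Furin, a protease that cuts secreted precursors, had a log2 difference of -0.09 (SE 0.032), and Itih4, another heavy chain family gene, of 0.05 (SE 0.034).

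Genes that handle the cargo were mixed in direction. Of 25 listed for retinol, thyroid hormone, vitamin D, iron and haem 22 were tested, with 10 positive and 12 negative differences and a median of -0.001. With limma 0 passed (0.394% of all tested genes) and 5 had an unadjusted p under 0.05 (12.7%). Aldh1a1, an enzyme of retinoic acid synthesis, passed with voom (1.22% of all genes). The most abundant, the ferritin chains Fth1 and Ftl1 and the haem transporter Slc48a1, had log2 differences of -0.02 (SE 0.050), -0.01 (SE 0.037) and 0.06 (SE 0.045).

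Liver transcription factors with a known role at carrier genes were mostly above their β-gal level without passing the test. Of 20 listed 18 were tested, 15 of them with a positive difference (52.4% of all tested genes), and the median was 0.08. With limma 0 passed (0.394% of all tested genes) and 5 had an unadjusted p under 0.05 (12.7%), and with voom 2 passed, Onecut1 and Prox1 (1.22% of all genes). The groups were apart in 9, all higher, where 11.2% of all tested genes were. As this list too was chosen with earlier results known, nothing is read from its counts. The most abundant were Cebpb, with a log2 difference of 0.09 (SE 0.042), Hnf4a, with 0.03 (SE 0.062), and Stat3, a mediator of the acute-phase response, with 0.03 (SE 0.051).

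The machinery that brings secreted proteins into and out of the endoplasmic reticulum was listed with 37 genes, of which 36 were tested. With limma 0 passed (0.394% of all tested genes), 6 had an unadjusted p under 0.05, near the 12.7% of all tested genes, and 1, the chaperone gene Hsp90b1, passed with voom (1.22%). The median was 0.01. The groups were apart in 9 with Aloxe3 higher, Calr among them, and in 1 with Aloxe3 lower. Of all tested genes, 11.2% were apart as higher and 8.71% as lower. Hspa5, the main chaperone of the compartment, was at 427 ± 15.6 and 446 ± 26.8 RPKM, Calr, a chaperone of glycoproteins, at 406 ± 22.7 and 449 ± 16.2 RPKM, and P4hb, a disulfide isomerase, at 263 ± 10.6 and 268 ± 12.0 RPKM (SD, n = 3, β-gal first). Their log2 differences were 0.06 (SE 0.053), 0.15 (SE 0.052) and 0.03 (SE 0.048).

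The genes whose values followed those of Ttr and Alb most closely over the 6 libraries were found by the root mean square distance of log2 profiles, each centred on its own mean, among 7365 genes that averaged 5 RPKM or more. Nearest to Ttr were Slc38a7, an amino acid transporter, at a distance of 0.038, Car3, a carbonic anhydrase, at 0.051, and Apoa2, an apolipoprotein of high density lipoprotein, at 0.052. Ttr itself deviated from its mean by 0.157 on this scale. Slc38a7 was at 28.9, 29.6 and 28.8 RPKM in the β-gal libraries and at 22.4, 23.0 and 23.3 RPKM in the Aloxe3 libraries, and Apoa2 was at 284, 285 and 270 RPKM and at 237, 237 and 236 RPKM. That their groups are apart in the direction of Ttr follows from how they were picked. Nearest to Alb were Gramd4, Senp2 and Iars2, at distances from 0.0066 to 0.0071, where Alb itself deviated by 0.020.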

How the data were processed

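RNA of primary murine hepatocytes was sequenced in 6 libraries, 3 with β-gal and 3 with Aloxe3, as single reads of 50 bases after poly-A selection. Per the labels and the methods of the study, the authors aligned reads with STAR 2.0.4b, counted them per gene with featureCounts 1.4.5 (build GRCm38.p2) and deposited RPKM values; how counts became RPKM is not given in the sources used here. Strand was not stated, so overlapping genes cannot be told apart.

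RPKM was used as deposited. Genes averaging 0.5 RPKM or more (12693) were fitted in limma 3.58.1 (R 4.3.3) on the scale of log2(RPKM + 1), over all 6 libraries without covariates, with trended eBayes and Benjamini-Hochberg adjustment at 0.05. Symbols (40254 of 41388 identifiers) and coordinates came from GENCODE M21 (GRCm38). Reads were derived from the steps between values with the annotated exon length for 16548 genes and otherwise with the smallest length giving whole reads within 0.02, for the carriers other than Tf and Ambp, so those are known up to a common factor. Over all genes the derived reads came to 99.9% of the derived size of each library. Counting errors cover counting only.

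The members and gene lists were chosen with earlier results of these data known. Named were all 10 carriers, in each list the genes past the threshold or otherwise the 3 with the highest mean RPKM, and the 3 genes nearest to Ttr and to Alb; genes called with voom, neighbours and markers were named after their values were seen. Alternatives were a pseudocount of 0.1, no filter, a filter at 5 RPKM, quantile normalization, equal medians, eBayes without trend, each library left out, and voom on derived reads. The fit was tested on simulated data. Figures were drawn with matplotlib 3.10.9.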

Additional observations from a re-analysis of the deposited data

How the results depend on the processing

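No paired analysis was possible because the groups share no replicate numbers. Genes past the threshold numbered 50, against 7 without a filter, 155 with voom on derived reads, and 6 to 19 with 1 library left out. Of the carrier genes 1 passed, Ttr, and 0 did without a filter, with quantile normalization, without a trend in eBayes, and 0 to 0 with 1 library left out; 4 other alternatives kept the call, and the cause was not tested. Genes of the other lists past the threshold numbered 2, against 0 without a filter, 5 at a mean of at least 5 RPKM, 12 with voom, and 0 to 2 with 1 library left out. The median of the carriers stayed positive, from 0.0016 (without Aloxe3 replicate 7) to 0.061, over 13 alternatives. Directions turned for Gc (log2 0.013 with quantile normalization, 0.00087 without β-gal replicate 1, 0.0069 without Aloxe3 replicate 9, -0.040 to 0.0069 with 1 library left out), Hpx (-0.039 with quantile normalization) and Afp (-0.013 without Aloxe3 replicate 7, -0.013 to 0.092 with 1 library left out), where each turned difference was below its SE. Alb, Ttr, Tf, Rbp4, Ahsg, Ambp and Fetub kept their direction in all 13. Afp was below the filter at a mean of at least 5 RPKM, so that alternative gave it no value. Counting error is largest for Afp, the carrier with the fewest derived reads.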
